A study of Mus musculus with 22 samples.

Results

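Gpnmb and the transcription factors that are known to drive it, Mitf, Tfeb, Tfe3 and Tfec, were followed through 22 RNA-seq libraries of retinal microglia, the resident macrophages of the neural retina. These 5 genes were taken by name from the 35596 genes of the data set, and all 5 passed the filter on low counts that left 12415 genes for testing. Mice were 12 weeks old and had received apoptotic neurons by injection into the vitreous of the eye, Apoe-/- animals and wild-type animals alike, so no library came from an uninjected eye. The libraries fell into 4 groups, namely Apoe-/- phagocytic (n = 6), wild-type (C57BL/6) phagocytic (n = 5), Apoe-/- non-phagocytic (n = 6) and wild-type non-phagocytic cells (n = 5). CD11b+ Fcrls+ Ly6c- cells were collected 24 hours after the injection, per the header of the authors' gene table, and split by Alexa488 into a phagocytic and a non-phagocytic fraction. Retinas of mice of the same sex and genotype were combined, 5 to 6 to a library, and 100 to 500 phagocytic cells were collected per pool, so that a p-value measures the spread between pools. The deletion of Apoe, the gene of the lipid carrier apolipoprotein E, is present in all cells of the Apoe-/- mice, and their background strain was not stated further.

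GPNMB is a transmembrane glycoprotein of lysosomes, melanosomes and the cell surface, and it is made by macrophages that digest large amounts of lipid or dead cells. MITF, TFEB, TFE3 and TFEC form the MiT/TFE family, whose members bind as dimers to E-box DNA sequences through a basic helix-loop-helix leucine zipper domain and switch on lysosomal and autophagy genes. Their activity depends on where the protein is: the kinase mTORC1 phosphorylates them at the lysosome, 14-3-3 proteins then hold them in the cytoplasm, and on dephosphorylation they enter the nucleus. Abundance of the RNA, which is what these libraries measured, does not report that step.

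The promoter of Gpnmb is shown because the factors are known to act on E-boxes of the form CANNTG, of which CACGTG is the core of the CLEAR element of lysosomal genes and TCATGTG the core of the M-box of pigment genes. In the RefSeq promoter windows (250 bases before to 50 bases after a start, build GRCm38.p6), Gpnmb had neither CACGTG nor TCATGTG on either strand. It had an E-box of the looser form at 58 bases before the start, in capitals in the stretch chr6:49036268-49036517 (plus strand), and another 5 bases after the start, outside this stretch.

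Gpnmb promoter: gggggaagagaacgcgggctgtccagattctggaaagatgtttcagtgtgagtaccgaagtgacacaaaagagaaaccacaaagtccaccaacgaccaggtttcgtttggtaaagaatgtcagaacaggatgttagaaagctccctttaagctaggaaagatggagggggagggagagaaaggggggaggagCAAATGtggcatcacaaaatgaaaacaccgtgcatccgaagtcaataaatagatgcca

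CANNTG is a short pattern that overlaps both of the others, and it occurred in 72.3% of all 32851 windows. CACGTG occurred in 7.15% of windows and TCATGTG in 3.77%. None of the 10 windows of the 5 genes held CACGTG or TCATGTG, which says only that these letters are not in these windows.

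In contrast, lysosomal genes known as MiT/TFE targets often carried the CLEAR core there. Of the 33 genes of that list, 24 had a window, and 16 of the 24 (66.7%) held CACGTG, against 8.09% of all genes with a window. Sites of 4 of them follow, with the CACGTG core in capitals and 7 bases on each side, and for Mcoln1 only the nearer of its 2 sites is shown. Lamp1 had 4 such sites within 61 bases of its start.

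Lamp1 (chr8:13159093-13159112, plus strand): aagatatCACGTGgtccagc
Lamp1 (chr8:13159109-13159128, plus strand): cagcgccCACGTGatgccga
Lamp1 (chr8:13159126-13159145, plus strand): cgactggCACGTGaccacat
Lamp1 (chr8:13159139-13159158, plus strand): accacatCACGTGcggaacg
Mcoln1 (chr8:3500467-3500486, plus strand): ccccgctCACGTGaccgcgg
Clcn7 (chr17:25133369-25133388, plus strand): cgtcagtCACGTGggcaccg
Ctsd (chr7:142387913-142387932, minus strand): cgcgtctCACGTGacccgtt

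The libraries held 1133577 to 3649436 estimated reads, and 16547 to 21776 genes were detected in each. Predicted genes of satellite-like repeats, 8 in number, took 8.88% to 50.3% of the reads of a library, and 862627 to 2909407 reads fell on the rest. Between libraries of a group the chi-square per degree of freedom lay between 7.01 and 67.3, so no library was a copy of another. Apoe itself was at 8.91 to 34.9 CPM (counts per 1e6 reads) in Apoe-/- phagocytic and 7.02 to 17.6 CPM in Apoe-/- non-phagocytic libraries, against 1317 to 5145 CPM in wild-type phagocytic and 869 to 1604 CPM in wild-type non-phagocytic libraries. The summed level of 12 microglia markers was 10835 ± 4775 CPM in Apoe-/- phagocytic, 13165 ± 5991 CPM in wild-type phagocytic, 13274 ± 4246 CPM in Apoe-/- non-phagocytic and 13866 ± 7033 CPM in the non-phagocytic cells of wild-type mice (SD).

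Gpnmb was the only member of the 5 called between the sorts. In Apoe-/- phagocytic libraries it ranged from 11.7 over a median of 61.7 to 225 CPM, and in Apoe-/- non-phagocytic libraries from 0 over 3.46 to 12.5 CPM. In the wild-type phagocytic libraries 1 to 5 it was at 263, 366, 299, 161 and 98.6 CPM, against 7.75, 24.3, 0.373, 7.59 and 49.8 CPM in the wild-type non-phagocytic libraries 1 to 5. The wild-type sorts did not overlap, as was so for 2.14% of all genes, while in Apoe-/- cells 5 of 6 phagocytic libraries lay above every non-phagocytic one.

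The estimated reads behind these values were few in the non-phagocytic cells. Gpnmb had 0 to 30 reads in Apoe-/- non-phagocytic and 1 to 115 in wild-type non-phagocytic libraries, and 13 to 761 in Apoe-/- phagocytic and 222 to 1137 in wild-type phagocytic libraries. In bulk libraries, fewer cells with the RNA and less RNA per cell cannot be told apart.

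Gpnmb rose with the sort in both genotypes. Its mean was 97.6 ± 96.6 CPM in Apoe-/- phagocytic and 5.05 ± 4.79 CPM in Apoe-/- non-phagocytic cells (SD, n = 6 each), and 237 ± 107 CPM in wild-type phagocytic and 18.0 ± 19.9 CPM in the non-phagocytic cells of wild-type mice (SD, n = 5 each). The log2 fold change was 4.21 ± 0.80 (SE) in Apoe-/- cells and 3.70 ± 0.80 in wild-type cells, 18.5-fold and 12.98-fold (edgeR's quasi-likelihood test, Benjamini-Hochberg adjusted p = 0.0125 and 0.0431). Of all 12415 genes, 0.467% were called in Apoe-/- and 0.209% in wild-type cells. The wild-type call was lost when any one of 11 libraries was left out, namely wild-type phagocytic 1, 2, 3 or 4, wild-type non-phagocytic 1, 2, 3 or 4, Apoe-/- phagocytic 4, or Apoe-/- non-phagocytic 4 or 6 (edgeR, adjusted p up to 0.143), and also with length-scaled counts (0.0788) or coding transcripts only (0.0639). The Apoe-/- call held without any single library (adjusted p up to 0.0477), but not without Apoe-/- non-phagocytic libraries 2 and 5 together, which were rich in satellite-like reads (adjusted p = 0.0959), nor with limma on log2(FPKM + 1) of the authors' gene table (0.0599).

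**Figure D1:**
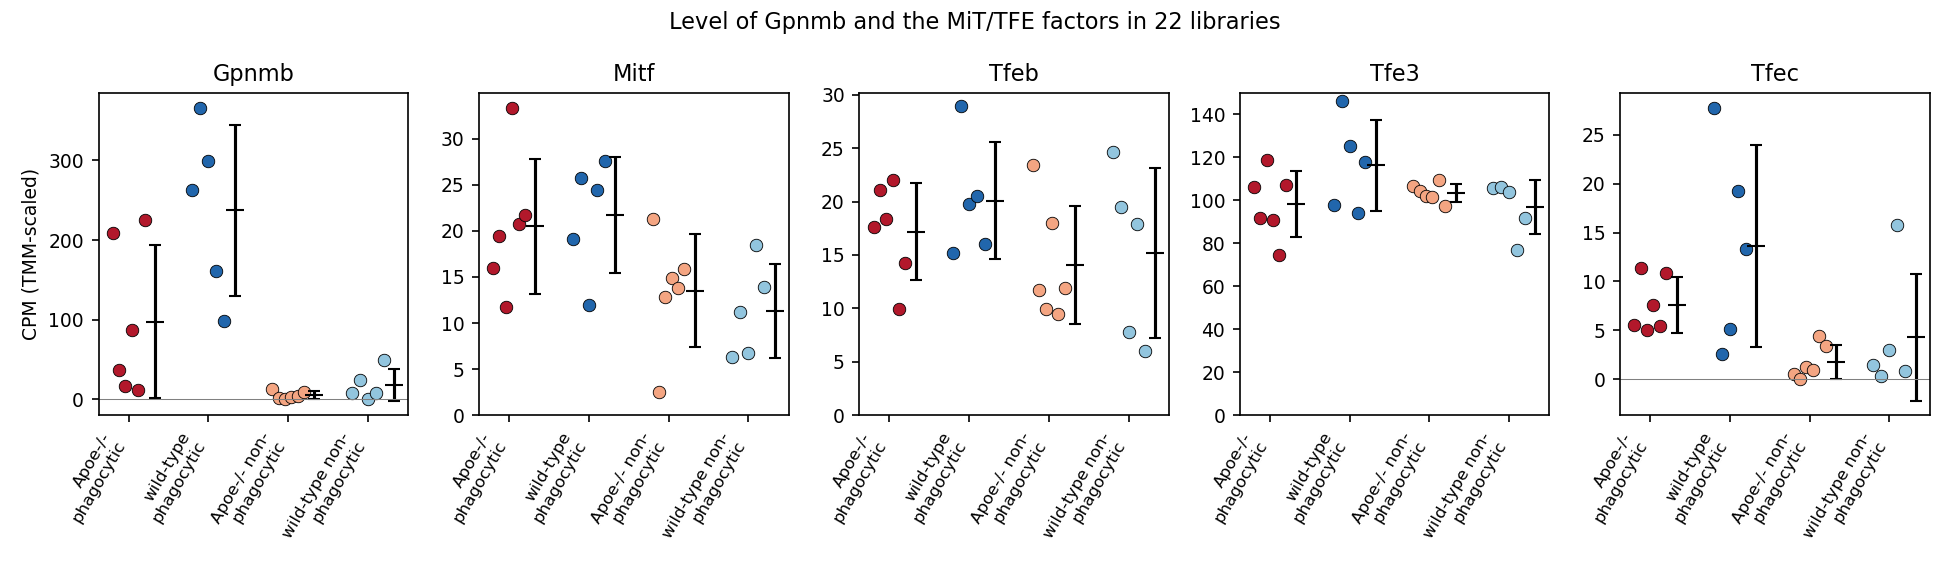
Level of Gpnmb, Mitf, Tfeb, Tfe3 and Tfec in CPM (y axes start at or below 0 and differ between panels) in each of the 22 libraries, by group; the dash and bar beside each group are the mean and SD. Gpnmb ranges from 98.6 to 366 CPM in wild-type phagocytic cells and from 0.373 to 49.8 CPM in the non-phagocytic cells of wild-type mice, whereas Tfe3 lies between 74.8 and 146 CPM in all groups.

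The fitted changes of the factors were smaller than that of Gpnmb, although the 95% intervals of Tfec overlapped those of Gpnmb. Mitf, the family member best known from pigment cells and osteoclasts, ranged from 11.7 over 20.1 to 33.3 CPM in Apoe-/- phagocytic and from 2.52 over 14.4 to 21.2 CPM in Apoe-/- non-phagocytic libraries. In wild-type libraries 1 to 5 it was at 19.1, 25.7, 12.0, 24.4 and 27.5 CPM in phagocytic cells and at 6.34, 11.2, 6.71, 18.4 and 13.9 CPM in non-phagocytic cells. The sorts overlapped in both genotypes, although 4 of 5 wild-type phagocytic libraries were above every non-phagocytic one.

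The log2 fold change of Mitf with the sort was 0.57 ± 0.36 in Apoe-/- and 0.94 ± 0.39 in wild-type cells, and it was called in neither (edgeR, Benjamini-Hochberg adjusted p = 0.671 and 0.553). The unadjusted p of the wild-type difference was 0.0246 by the same edgeR test, in a comparison in which 7.74% of all genes had an unadjusted p under 0.05.

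Tfec, a family member expressed mainly in macrophages, had the largest fitted change among the factors and the fewest reads. It ranged from 5.01 over 6.54 to 11.3 CPM in Apoe-/- phagocytic and from 0 over 1.07 to 4.40 CPM in Apoe-/- non-phagocytic libraries, without overlap. In wild-type libraries 1 to 5 it was at 27.7, 2.57, 5.14, 19.3 and 13.3 CPM in phagocytic cells and at 1.41, 0.374, 2.98, 15.7 and 0.867 CPM in non-phagocytic cells. In wild-type cells the sorts overlapped through non-phagocytic library 4, which had 29 of the 42 Tfec reads of its group.

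Tfec changed by 2.04 ± 0.77 in Apoe-/- and 1.68 ± 0.78 in wild-type cells on the log2 scale and was called in neither genotype (edgeR, Benjamini-Hochberg adjusted p = 0.332 and 0.613). Its 95% interval, taken from the SE, ran from 0.53 to 3.54 in Apoe-/- and from 0.15 to 3.21 in wild-type cells. The unadjusted p was 0.0133 and 0.0402 by the same edgeR test, and 7.74% of all genes were under 0.05 in wild-type cells. Of all genes, 0.87% did not overlap between the sorts in Apoe-/- cells. Without both wild-type libraries numbered 4 the wild-type change was 3.05 (edgeR, adjusted p = 0.177), and without the non-phagocytic one alone it was 3.21. On coding transcripts only, chosen after seeing the data, it was 7.55 ± 1.74 (edgeR, adjusted p = 0.0852), a value that depends on the prior count because those transcripts were at 0 in all 5 wild-type non-phagocytic libraries.

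Tfeb, the factor first described as the master switch of lysosomal genes, ranged from 9.91 over 18.0 to 21.98 CPM in Apoe-/- phagocytic and from 9.43 over 11.8 to 23.4 CPM in Apoe-/- non-phagocytic libraries. In wild-type cells it was at 15.2, 29.0, 19.7, 20.5 and 16.0 CPM in phagocytic libraries 1 to 5 and at 24.7, 19.4, 7.83, 17.9 and 6.07 CPM in non-phagocytic libraries 1 to 5. The sorts overlapped in both genotypes.

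Tfe3, its close relative, varied least. It ranged from 74.8 over 98.9 to 119 CPM in Apoe-/- phagocytic and from 97.4 over 103 to 109 CPM in Apoe-/- non-phagocytic libraries. In wild-type cells it was at 98.0, 146, 125, 94.1 and 118 CPM in phagocytic and at 106, 106, 104, 77.0 and 91.9 CPM in non-phagocytic libraries 1 to 5. Again the sorts overlapped.

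The log2 fold change with the sort was 0.29 ± 0.34 in Apoe-/- and 0.42 ± 0.36 in wild-type cells for Tfeb (edgeR, Benjamini-Hochberg adjusted p = 0.864 and 0.883). For Tfe3 it was -0.07 ± 0.15 and 0.26 ± 0.17 (adjusted p = 0.944 and 0.774). The 95% interval of the Tfe3 difference, taken from the SE, ran from -0.37 to 0.22 in Apoe-/- cells and from -0.06 to 0.59 in wild-type cells, and the interval of Gpnmb from 2.64 to 5.78 and from 2.13 to 5.26. None of the 4 factors was called in any of the 5 comparisons, under any alternative or with any one library left out (0 of 704 values).

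**Figure D2:**
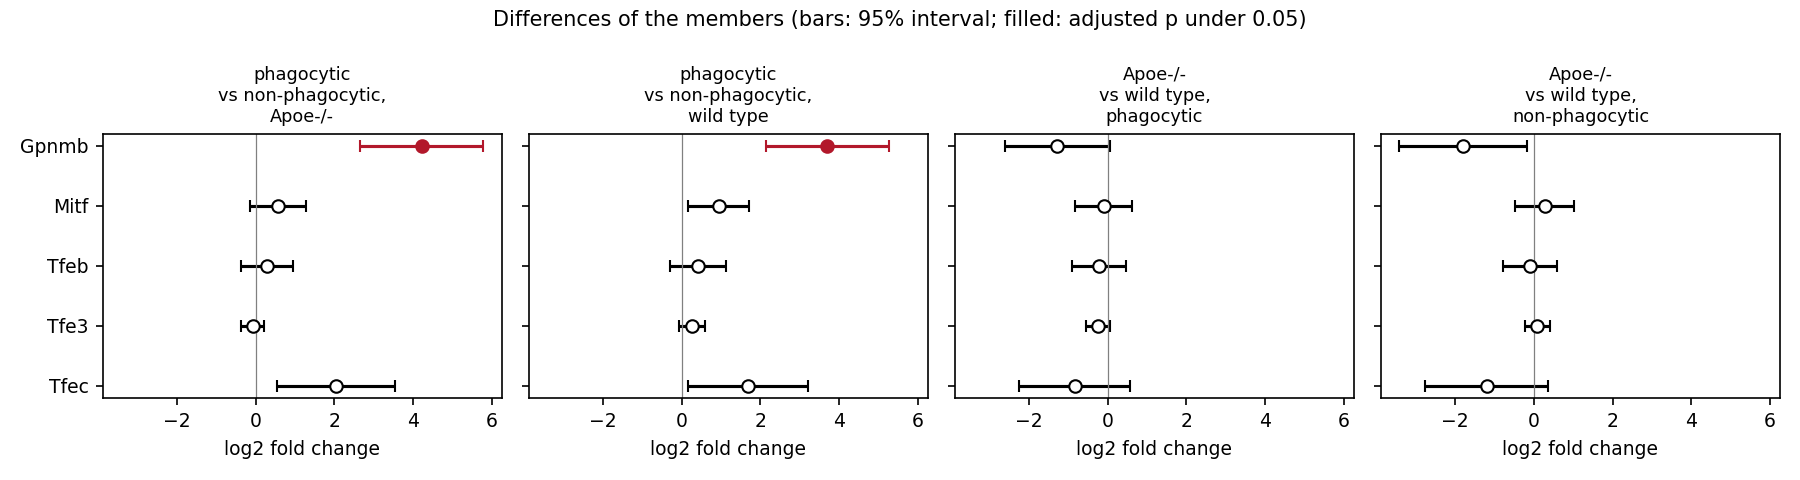
Log2 fold changes (x axis) of the 5 genes (y axis) in the 4 comparisons between groups, with bars for the 95% interval from the SE of edgeR's fit; filled red points passed an adjusted p of 0.05. Gpnmb is filled in both comparisons of the sorts, at 4.21 and 3.70, and no factor is filled in any panel.

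Apoe-/- and wild-type cells of the same sort were compared next. Gpnmb averaged less in Apoe-/- than in wild-type cells in both sorts, and neither difference passed the threshold. Among phagocytic cells 4 of 6 Apoe-/- libraries lay below every wild-type library, and the log2 fold change was -1.28 ± 0.68 (edgeR, Benjamini-Hochberg adjusted p = 0.798; 0.0322% of genes called). Among non-phagocytic cells it was -1.79 ± 0.83 (adjusted p = 0.999; 0.0161% of genes called), with an unadjusted p of 0.0399 by the same edgeR test, as 3.8% of genes had one under 0.05. Mitf, Tfeb, Tfe3 and Tfec differed by -0.10, -0.22, -0.24 and -0.84 between phagocytic cells and by 0.27, -0.09, 0.09 and -1.19 between non-phagocytic cells on the log2 scale, none of them called (edgeR, adjusted p of 0.798 or more). The sign of the Tfec difference between non-phagocytic cells rested on wild-type library 4, since it was 0.33 without that library. The sort effect of Gpnmb in Apoe-/- cells minus that in wild-type cells was 0.51 ± 1.06 (edgeR, adjusted p = 1.00), with a 95% interval from -1.56 to 2.58. No gene (0% of all) was called for that difference by edgeR, 301 genes (2.42%) had an unadjusted p under 0.05, and DESeq2 called 2. These comparisons share libraries with those of the sorts.

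The spread of Gpnmb between libraries differed by group. Among Apoe-/- phagocytic libraries its highest value was 19.2 times its lowest, and the coefficient of variation was 98.9%. The same ratio was 2.85 for Mitf, 2.22 for Tfeb, 1.59 for Tfe3 and 2.26 for Tfec in these libraries. In wild-type phagocytic libraries Tfec varied more, with a coefficient of variation of 75.7%, against 45.1% for Gpnmb. Apoe-/- phagocytic library 6, with 225 CPM of Gpnmb, had 21.7 CPM of Mitf and 10.9 CPM of Tfec. Library 5 of the same group, with 11.7 CPM of Gpnmb, had 20.7 CPM of Mitf and 5.41 CPM of Tfec. Gpnmb thus differed 19.2-fold between 2 libraries with nearly the same Mitf level in CPM over all its transcripts. Coding transcripts of Mitf alone did differ, in the direction of Gpnmb. They were at 4.64 TPM (a level scaled by transcript length) in library 6 and 2.20 TPM in library 5.

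In wild-type phagocytic cells, library 3 had 299 CPM of Gpnmb with 12.0 CPM of Mitf, the lowest Mitf level of the group. Library 5 had 98.6 CPM of Gpnmb with 27.5 CPM of Mitf, the highest of the group. Their order by Gpnmb was therefore not their order by Mitf over all its transcripts. On coding transcripts of Mitf alone it was, at 3.01 TPM in library 3 and 2.23 TPM in library 5. The summed level of the 4 factors was 143 ± 16.7 CPM in Apoe-/- phagocytic, 172 ± 18.8 CPM in wild-type phagocytic, 133 ± 11.5 CPM in Apoe-/- non-phagocytic and 128 ± 10.8 CPM in the non-phagocytic cells of wild-type mice (SD). In wild-type cells this sum did not overlap between the sorts, at 158 to 203 CPM in phagocytic libraries and 113 to 138 CPM in the non-phagocytic ones. Of all genes taken singly, 2.14% did not overlap in that comparison. In Apoe-/- cells the sum did overlap.

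**Figure D3:**
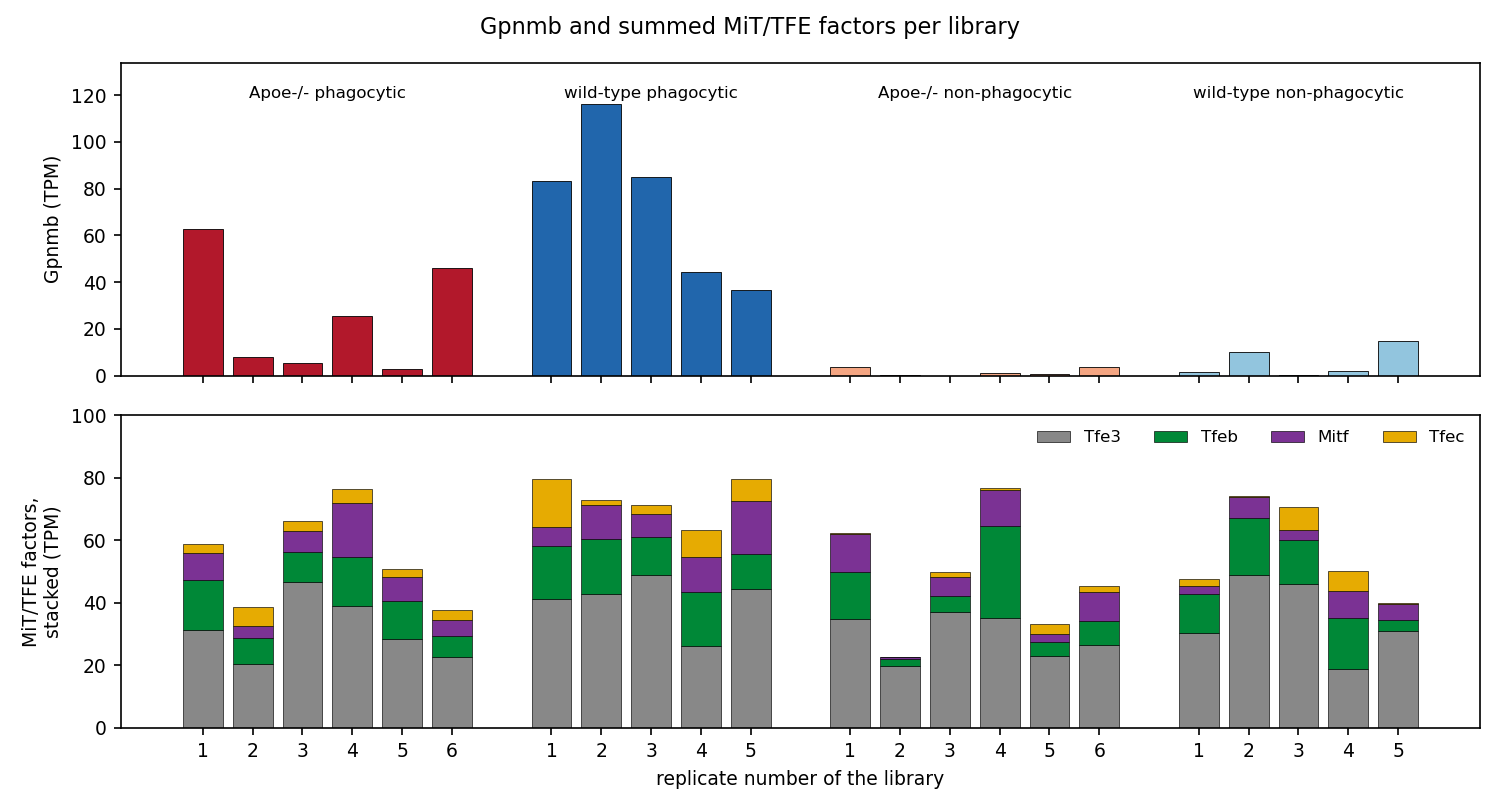
Gpnmb (top) and the 4 factors stacked (bottom) in TPM (y axes from 0) for each library, numbered within its group on the x axis. Gpnmb spans 0 to 116 TPM over the 22 libraries while the stacked factors stay between 22.6 and 79.5 TPM, with Tfe3 the tallest share in every library.

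To ask whether Gpnmb follows the factors beyond the difference between groups, log2 CPM values were centred on the group mean and correlated over the 22 libraries. Pearson's r of Gpnmb was 0.329 with Mitf, 0.245 with Tfeb, 0.164 with Tfe3 and -0.135 with Tfec, and Spearman's rho was 0.352, 0.259, 0.223 and -0.190. None passed a permutation test within groups (100000 permutations, two-sided p = 0.162, 0.385, 0.496 and 0.595 for r, and 0.127, 0.305, 0.362 and 0.404 for rho; Benjamini-Hochberg adjusted over the 4 factors, 0.595 for each r and 0.404 for each rho). Without the 2 libraries farthest from the median of the factor, r was 0.414 for Mitf, 0.551 for Tfeb, -0.0164 for Tfe3 and -0.162 for Tfec. The value of Tfeb rested on single libraries, since leaving out 1 library moved it between 0.0851 and 0.554 (permutation test, adjusted p of 0.101 or more). Mitf had 3 to 80 estimated reads a library, Tfeb 11 to 90 and Tfec 0 to 71, against 83 to 454 for Tfe3. Counting noise at few reads lowers r, so a low r does not show that Gpnmb fails to follow a factor.

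**Figure D4:**
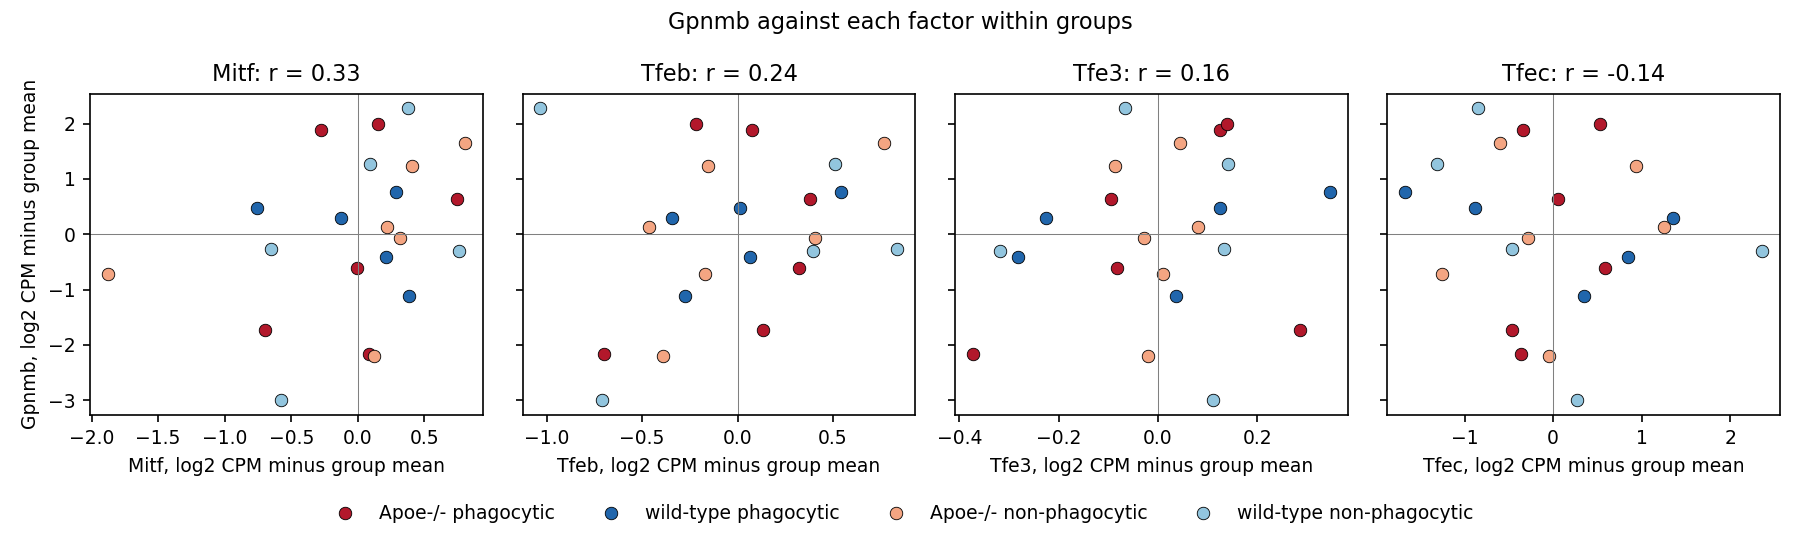
Gpnmb against Mitf, Tfeb, Tfe3 and Tfec, each as log2 CPM minus the mean of the library's group, so that the axes show only differences within groups; each point is 1 of 22 libraries, coloured by group. The points do not line up in any panel, and r lies between -0.135 and 0.329.

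Within single groups, correlations were tested in Apoe-/- cells, with 6 libraries each, and were not run in the wild-type groups of 5. In Apoe-/- phagocytic libraries r of Gpnmb was 0.299 with Mitf, 0.289 with Tfeb, 0.391 with Tfe3 and 0.400 with Tfec (exact permutation test, two-sided p = 0.396 or more). In Apoe-/- non-phagocytic libraries it was 0.443, 0.586, 0.0389 and 0.205 (exact permutation test, p = 0.215 or more). The highest rank correlation among these 8 relations was 0.886 for Mitf in Apoe-/- non-phagocytic libraries (exact permutation p = 0.0333, Benjamini-Hochberg adjusted 0.267). The lowest of these libraries by Mitf, number 2, had 2.52 CPM of it and 1.68 CPM of Gpnmb. Those values rested on 3 and 2 reads, in a library with 50.3% satellite-like reads.

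Levels of different genes were compared per transcript length, in TPM, which scales each transcript by its length before the library total. Gpnmb was at 25.1 ± 24.7 TPM in Apoe-/- phagocytic, 73.1 ± 32.7 TPM in wild-type phagocytic, 1.53 ± 1.65 TPM in Apoe-/- non-phagocytic and 5.77 ± 6.38 TPM in wild-type non-phagocytic cells (SD). Tfe3 was at 31.5 ± 9.89, 40.7 ± 8.58, 29.4 ± 7.30 and 35.0 ± 12.4 TPM in the same groups. Of the summed TPM of the 4 factors, Tfe3 held 60.02 ± 11.8%, Tfeb 20.6 ± 7.42%, Mitf 12.998 ± 5.50% and Tfec 6.41 ± 5.34% (SD, 22 libraries). Over all transcripts, Tfe3 was the highest factor in 22 of 22 libraries. The next places were less firm, with Tfeb above Mitf in 17 and Mitf above Tfec in 18 of 22 libraries. Gpnmb exceeded Tfe3 in 6 of 22 libraries. On coding transcripts alone the shares were 58.3 ± 12.6% for Tfe3, 30.6 ± 11.6% for Tfeb, 6.96 ± 3.34% for Mitf and 4.16 ± 6.25% for Tfec (SD, 22 libraries). There Tfe3 was not always the highest, as in Apoe-/- non-phagocytic library 4, with 24.6 TPM of Tfeb and 21.8 TPM of Tfe3.

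The deposited values also resolve transcripts, in part by estimate, because a read that matches several transcripts is divided between them by Salmon. Gpnmb (chromosome 6, 49036546 to 49070929, plus strand, build GRCm38) had 97.4% of its reads on coding transcripts. Mitf (chromosome 6, 97807052 to 98021349, plus strand) had 40.5% of its reads and 65.8% of its TPM on Mitf-206, a transcript with a retained intron. Mitf has alternative starts whose products differ at the N terminus. Of its reads, 91.96% were assigned to transcripts that begin at the most upstream start (97807052 to 97807058) and 4.58% to those that begin at 97991792 or later. A processed pseudogene, Gm15531, overlaps Mitf on the other strand and held a mean of 1.18 reads.

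Coding transcripts of Mitf alone were at 3.46 ± 1.37 TPM in Apoe-/- phagocytic, 3.47 ± 1.36 TPM in wild-type phagocytic, 1.80 ± 0.92 TPM in Apoe-/- non-phagocytic and 1.59 ± 0.78 TPM in wild-type non-phagocytic cells (SD). In an edgeR fit of coding transcripts alone, chosen after seeing the data, the log2 fold change of Mitf with the sort was 0.99 ± 0.43 in Apoe-/- and 0.90 ± 0.46 in wild-type cells, called in neither (Benjamini-Hochberg adjusted p = 0.480 and 0.776). Within groups Gpnmb correlated with coding Mitf at r = 0.581 on log2(TPM + 1) (permutation test, p = 0.00936, adjusted 0.0374), also chosen after seeing the data, and at r = 0.353 on log2 CPM of the same reads (permutation test, adjusted p = 0.374). On the TPM scale leaving out 1 library moved r between 0.549 and 0.631, and the adjusted p was under 0.05 in 13 of 22 such cases.

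Tfec (chromosome 6, 16833373 to 16898441, minus strand) had 57.4% of its reads on coding transcripts. Its coding transcripts were listed at 0 TPM in all 5 wild-type non-phagocytic libraries, and at 0, 6.52 and 14.9 TPM as the lowest, median and highest of wild-type phagocytic libraries. In Apoe-/- libraries they were at 0, 1.43 and 2.86 TPM in phagocytic and 0, 0 and 1.31 TPM in non-phagocytic cells. The 29 reads of wild-type non-phagocytic library 4 therefore lay on non-coding transcripts of Tfec. Tfeb (chromosome 17, 47737030 to 47792419, plus strand) had 98.8% of its reads on coding transcripts, and Tfe3 (chromosome X, 7762560 to 7775202, plus strand) 58.1%, with 38.7% on transcripts with a retained intron.

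Most known targets of the family had a positive change with the sort, and few passed the test one by one. Of 33 lysosomal CLEAR genes, 29 had a positive log2 fold change with the sort in each genotype, with a median of 0.50 in Apoe-/- and 0.46 in wild-type cells. Over all genes tested, 47.7% and 49.2% were positive, with medians of -0.02 and -0.01. Called higher were 3 genes in Apoe-/- cells and 1 in wild-type cells, against 0.403% and 0.193% of all genes called higher. In neither sort was any of them called between Apoe-/- and wild-type cells, where 18 of 33 were positive among phagocytic and 11 of 33 among non-phagocytic cells.

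Ctsb, the cysteine protease cathepsin B, averaged 3628 ± 938 CPM in Apoe-/- phagocytic and 1523 ± 433 CPM in Apoe-/- non-phagocytic cells (SD, n = 6 each), a log2 difference of 1.25 ± 0.22 (edgeR, Benjamini-Hochberg adjusted p = 0.00624). Lamp1, a major protein of the lysosomal membrane, averaged 360 ± 134 CPM in Apoe-/- phagocytic and 181 ± 22.5 CPM in Apoe-/- non-phagocytic cells (log2 fold change 0.99 ± 0.21, edgeR adjusted p = 0.0218). In wild-type cells it averaged 515 ± 120 CPM in phagocytic cells and 204 ± 24.9 CPM in non-phagocytic ones (log2 fold change 1.33 ± 0.23, edgeR adjusted p = 0.00694). Atp6v0d1, a subunit of the proton pump that acidifies lysosomes, averaged 100.2 ± 8.58 CPM in Apoe-/- phagocytic and 53.1 ± 6.29 CPM in Apoe-/- non-phagocytic cells (log2 fold change 0.92 ± 0.19, edgeR adjusted p = 0.0205).

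These calls differed in how much they rested on single libraries. Those of Ctsb and of Lamp1 in wild-type cells held without any one of 22 libraries, with adjusted p up to 0.0325 and 0.0357. The Apoe-/- call of Lamp1 was lost without Apoe-/- phagocytic library 1, 5 or 6 or non-phagocytic library 4 or 6 (edgeR, adjusted p up to 0.0996), and that of Atp6v0d1 without phagocytic library 5 or non-phagocytic library 6 (up to 0.0585). All 3 Apoe-/- calls were also lost without non-phagocytic libraries 2 and 5 together (edgeR, adjusted p from 0.0648 to 0.0789) and with limma on log2(FPKM + 1) (adjusted p of 0.117 for Ctsb, 0.0843 for Lamp1 and 0.0669 for Atp6v0d1). That of Lamp1 was lost with only the groups compared (edgeR, 0.0561), and that of Atp6v0d1 without a filter on low counts (edgeR, 0.0534).

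Ctsd, the abundant aspartic protease cathepsin D, had log2 fold changes of 0.85 ± 0.25 in Apoe-/- and 0.48 ± 0.27 in wild-type cells and was called in neither (edgeR, Benjamini-Hochberg adjusted p = 0.159 and 0.742). The genes with CACGTG in a promoter window, 16 in number, had a median of 0.45 in Apoe-/- and 0.41 in wild-type cells, and the 8 with a window but without it 0.38 and 0.45. The medians with and without the motif lay close together in both genotypes, and their difference was not tested.

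**Figure D5:**
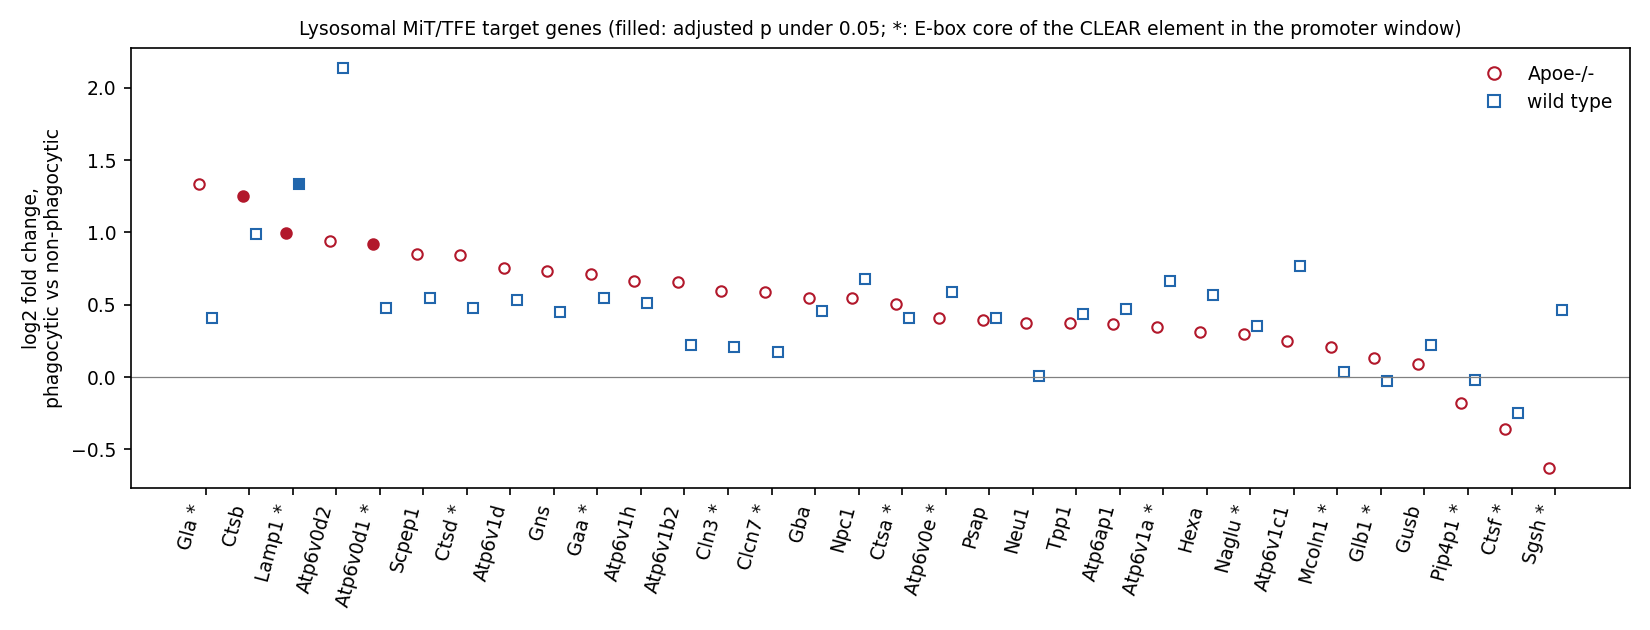
Log2 fold change between phagocytic and non-phagocytic cells (y axis) for 32 of the 33 lysosomal target genes of the MiT/TFE family (x axis, ordered by the Apoe-/- value), with red circles for Apoe-/- and blue squares for wild type; filled symbols passed an adjusted p of 0.05 and an asterisk marks CACGTG in a promoter window. In each genotype 29 of 32 points lie above 0, and filled symbols are at Ctsb, Lamp1 and Atp6v0d1.

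Autophagy and nutrient-sensing targets showed less. Of 13 genes, 9 were positive in Apoe-/- and 8 in wild-type cells, with medians of 0.10 and 0.13, and none was called. Sqstm1, an autophagy receptor, changed by 0.75 ± 0.19 in Apoe-/- and 0.95 ± 0.21 in wild-type cells (edgeR, Benjamini-Hochberg adjusted p = 0.0886 and 0.0518). Map1lc3b, whose product coats autophagosomes, changed by -0.27 ± 0.18 and -0.00 ± 0.20.

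Of 7 genes known as targets of MITF and TFE3 in osteoclasts, 6 were tested and none was called, with 5 positive in each genotype. The chloride transporter gene Clcn7 changed by 0.59 ± 0.19 in Apoe-/- and 0.17 ± 0.20 in wild-type cells, and its partner Ostm1 by 0.14 ± 0.27 and 0.27 ± 0.29 (edgeR, adjusted p of 0.21 or more). Larger in wild-type cells were the changes of Ctsk (2.90 ± 1.08), Atp6v0d2 (2.14 ± 1.09) and Acp5 (1.87 ± 0.62). In Apoe-/- cells these genes changed by 0.87 ± 0.98, 0.94 ± 0.96 and -0.03 ± 0.58. Genes that set where the factors reside, such as mTORC1 and Rag GTPase components, folliculin and 14-3-3 proteins, numbered 28 tested of 29, and none was called. Of these, 24 were positive in Apoe-/- and 21 in wild-type cells, with medians of 0.19 and 0.12. The 14-3-3 genes Ywhaz and Ywhab, the most abundant of them, changed by 0.07 ± 0.15 and 0.09 ± 0.16 in Apoe-/- cells and by 0.16 ± 0.16 and 0.21 ± 0.18 in wild-type cells.

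Other factors that bind E-boxes through the same kind of domain, 10 in number, were not called either. Myc changed by -0.89 ± 0.25 in Apoe-/- and -0.64 ± 0.26 in wild-type cells, and the sterol regulator Srebf2 by -0.14 ± 0.21 and -0.05 ± 0.23 (edgeR, Benjamini-Hochberg adjusted p of 0.127 or more). Of the known partners of GPNMB, Sdc4, which encodes the heparan sulfate proteoglycan syndecan-4, changed by 1.56 ± 0.40 in Apoe-/- and 1.04 ± 0.43 in wild-type cells (edgeR, adjusted p = 0.0815 and 0.541). Adam10, whose protease sheds the GPNMB ectodomain, changed by 0.03 ± 0.22 and 0.01 ± 0.24. Of the 4 partner genes tested none was called, and the paralog Pmel did not pass the filter on low counts.

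Among 6683 protein-coding genes with a mean of at least 20 CPM, the 8 whose group-centred log2 CPM was most like that of Gpnmb over the 22 libraries were Ado, Insig2, Hps5, Trip11, Pak1, Mtr, Asl and BC017158, with Pearson's r from 0.678 for Ado to 0.63 for BC017158. In the same order Mitf would take place 413, Tfeb 934, Tfe3 1604 and Tfec 4765. By Spearman's rho of log2 CPM without centring, which keeps the difference between the sorts, the 8 most like Gpnmb were Ms4a7, Pf4, Pld3, Wdr1, Lipa, F13a1, Cd151 and Atp6ap1, from 0.854 for Ms4a7 to 0.794 for Atp6ap1. Atp6ap1, a proton pump accessory gene, is also on the lysosomal target list. On that scale Mitf had a rho of 0.562 (place 259), Tfec 0.482 (487), Tfeb 0.408 (770) and Tfe3 0.277 (1554). These likenesses are descriptions across libraries that share groups and depth.

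Ms4a7, Pf4 and F13a1 are markers of border macrophages, the macrophages of the vessels and margins of neural tissue, and their summed level moved with the sort. The 10 markers of that list summed to 421 to 1079 CPM in Apoe-/- phagocytic and 215 to 360 CPM in Apoe-/- non-phagocytic libraries, and to 523 to 994 CPM in wild-type phagocytic and 263 to 377 CPM in wild-type non-phagocytic libraries. Of the 9 tested, 8 were positive in each genotype, with medians of 2.00 in Apoe-/- and 1.93 in wild-type cells. F13a1, Pf4 and Stab1 were called in Apoe-/- cells (edgeR, Benjamini-Hochberg adjusted p = 0.00911, 0.00817 and 0.0205) and F13a1 and Pf4 in wild-type cells (0.0309 and 0.0113). No marker of the list was at 0 in a whole group. Stab1 made up most of the sum, at 523 ± 233 CPM in Apoe-/- phagocytic cells and 230 ± 46.6 CPM in Apoe-/- non-phagocytic cells. Mrc1 averaged 21.1 CPM in phagocytic against 7.95 CPM in non-phagocytic libraries of Apoe-/- mice, and 31.2 against 12.6 CPM in those of wild-type mice. Cd163 and Lyve1 were lower, averaging 6.82 and 4.26 CPM in phagocytic against 1.52 and 0.439 CPM in non-phagocytic libraries of Apoe-/- mice. In wild-type mice they averaged 5.80 and 11.3 CPM in phagocytic libraries, against 1.44 and 0.523 CPM in non-phagocytic ones. Clec10a went the other way, at 5.95 CPM in phagocytic against 16.5 CPM in non-phagocytic libraries of Apoe-/- mice. In wild-type mice it was at 8.32 against 37.4 CPM.

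The wild-type call of F13a1 was lost without wild-type phagocytic library 2 or 4 or non-phagocytic library 1, 2, 3 or 5 (edgeR, adjusted p up to 0.14). That of Stab1 was lost without Apoe-/- phagocytic library 4, 5 or 6 or non-phagocytic library 2, 3 or 6 (edgeR, adjusted p up to 0.0803). Stab1 was also not called with length-scaled counts (adjusted p = 0.212), limma on FPKM (0.558), coding transcripts only (0.226) or without Apoe-/- non-phagocytic libraries 2 and 5 (0.132). Wild-type F13a1 was not called with length-scaled counts (0.0628), limma on FPKM (0.0886), coding transcripts only (0.0852) or without the wild-type libraries numbered 4 (0.0721). On coding transcripts only, F13a1 in Apoe-/- cells (0.0692) and Pf4 in wild-type cells (0.0622) were not called either. Within groups the summed border macrophage markers correlated with Gpnmb at r = 0.509 and rho = 0.464 over 22 libraries (permutation test, p = 0.0223 and 0.0499, Benjamini-Hochberg adjusted over 8 covariates 0.178 and 0.399), and at r = 0.360 without the 2 farthest libraries. The part of these cells in the level of Gpnmb was not tested.

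The other covariates correlated with Gpnmb within groups at r between -0.344 for pigment markers and 0.277 for dendritic cell markers (permutation test, adjusted p of 0.665 or more), among them read depth (0.184), the satellite-like share (0.119) and the summed microglia markers (0.0926). Gpnmb and Mitf are both well expressed in pigment cells and the pigment epithelium. Of 16 markers of these cells 7 passed the filter, none was called, and the sum was 28.4 to 103 CPM in Apoe-/- phagocytic, 35.5 to 60.5 CPM in wild-type phagocytic, 51.4 to 94.1 CPM in Apoe-/- non-phagocytic and 28.2 to 69.0 CPM in wild-type non-phagocytic libraries. Rpe65, Tyrp1 and Mlana were each at 0 in all libraries of at least one group. In contrast, Dct, Tyr and Best1 had reads in all 22 libraries, at means of 14.8, 10.2 and 8.63 CPM. The pigment sum averaged 57.0 CPM in Apoe-/- phagocytic, 47.7 CPM in wild-type phagocytic, 73.5 CPM in Apoe-/- non-phagocytic and 51.9 CPM in wild-type non-phagocytic libraries, and the part of these cells in the level of Gpnmb was not tested. Monocyte markers summed to 748 ± 341 CPM in Apoe-/- phagocytic, 1888 ± 883 CPM in wild-type phagocytic, 781 ± 265 CPM in Apoe-/- non-phagocytic and 1283 ± 965 CPM in the non-phagocytic cells of wild-type mice (SD). Fn1 alone made up most of each mean sum, at 584, 1407, 598 and 902 CPM in the same order. Other markers differed in direction with the sort, with F10 and Vcan positive and Ccr2 and Plac8 negative in both genotypes, none called. These sums were thus mostly a level of Fn1. Summed monocyte markers were not equal in all libraries. The sums were highest in the wild-type libraries numbered 4, at 3227 CPM in the phagocytic and 2919 CPM in the non-phagocytic one. Without both libraries the log2 fold change of Gpnmb in wild-type cells was 3.62 (edgeR, Benjamini-Hochberg adjusted p = 0.0880).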

How the data were processed

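The authors deposited, per the file headers, estimated read counts and TPM of 116248 transcripts in each of 22 libraries. Their gene table of deposited FPKM values is limited by its header to genes above 5. The build mm10 and the tools DESeq2 1.30.1, Salmon 1.4.0 and R 4.0.3 are listed per the submitters' processing notes, with no roles. Transcripts were matched to GENCODE M21 (GRCm38, the same assembly as mm10). Of them, 176 did not match, held 0.118% to 0.262% of reads and were left out. Deposited expected counts were summed per gene and rounded. Because Salmon divides reads between similar transcripts, transcript shares are estimates.

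edgeR 4.0.16 (R 4.3.3) fitted 12415 genes in 22 libraries and 4 groups by its quasi-likelihood test, with TMM scaling and filterByExpr. P-values were adjusted across the tested genes (Benjamini-Hochberg), and genes under 0.05 were called. The script was tested on simulated data. CPM are scaled by TMM, and log2 CPM use a prior count of 2. The authors' FPKM values entered only a limma 3.58.1 alternative, as log2(FPKM + 1). Alternatives used DESeq2 1.42.0, other scalings and filters, and left-out libraries. Correlations were tested by permuting libraries within groups. RefSeq promoter windows (GRCm38.p6) matched all 5 genes. The fitted change of a gene with few reads moves with the prior count.

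The genes and lists were chosen with earlier results of these data known. Named were the 5 genes, list genes called in any comparison, the 2 most abundant tested genes of each list, and the genes most like Gpnmb by the 2 measures. Values for other markers, and for Acp5, Ctsk and Atp6v0d2, were chosen after they were seen. Of the lysosomal list 1 gene is not reported here by name.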

Additional observations from a re-analysis of the deposited data

Results flagged for a closer look

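Among 20 sets of values (5 genes in 4 groups), a single library stood far from its group once: in wild-type non-phagocytic cells Tfec was at 15.7 CPM in library 4, and the next highest library had 2.98 CPM. That gap was 0.83 of the whole range of the group's 5 libraries. The cutoff on this gap was set to flag about 1 in 20 groups by chance if values are normally distributed. That rate belongs to the cutoff and not to this library, and CPM values from few reads need not be normally distributed. Summed monocyte markers were at 2919 CPM in this library, the second highest of 22, and their part in the value was not tested. On the average of this group, Fn1 made up most of that sum.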

How the results depend on the processing

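Gpnmb kept its direction in both comparisons of the sorts under all alternatives. Its call was lost in wild-type cells with length-scaled counts (3.64), coding transcripts only (3.66, chosen after seeing the data) and without both libraries numbered 4 (3.62), and in Apoe-/- cells with limma on FPKM (3.04) and without non-phagocytic libraries 2 and 5 (3.96). Leaving out 1 library gave 3.8 to 4.63 in Apoe-/- and 3.37 to 4.53 in wild-type cells.

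The number of genes called with the sort in Apoe-/- cells, 58, became 137 without a filter, 168 by DESeq2, 26 by limma on FPKM, 38 on coding transcripts, 16 without non-phagocytic libraries 2 and 5, and 18 to 89 without 1 library (over 1.5 times off without phagocytic library 2, 4, 5 or 6 or non-phagocytic library 3, 4, 5 or 6). In wild-type cells, 26 became 122 without a filter, 103 by DESeq2, and 13 to 64 without 1 library (over 1.5 times off without phagocytic library 2 or non-phagocytic library 2, 3, 4 or 5). Between phagocytic cells of the genotypes, 4 became 96 without a filter, 19 by DESeq2, 2 with only the groups compared, 1 on coding transcripts, and 3 to 23 without 1 library (23 without Apoe-/- phagocytic library 1). Between non-phagocytic cells 2 became 16 without a filter and 1 on coding transcripts. For the genotype difference in the sort effect 0 became 17 without a filter and 2 by DESeq2.

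Uncalled values that changed sign were, on coding transcripts only, Tfe3 with the sort in Apoe-/- cells (0.0617), Mitf between phagocytic cells (0.17) and in the genotype difference (0.0920), and Tfec between non-phagocytic cells (3.55), in the genotype difference (-5.46) and in its r with Gpnmb (0.0769, and 0.00266 on TPM). With limma on FPKM they were Tfe3 with the sort in Apoe-/- cells (0.0255) and between non-phagocytic cells (-0.0668), and Gpnmb (-0.91) and Tfeb (0.11) in the genotype difference. Without Apoe-/- non-phagocytic libraries 2 and 5, Tfeb was at 0.0838 between non-phagocytic cells, and without both wild-type libraries numbered 4 Tfec was at 0.33 there and at -1.01 in the genotype difference. Without 1 library, the ranges that crossed 0 were, between phagocytic cells, -0.29 to 0.0178 for Mitf, between non-phagocytic cells -0.30 to 0.14 for Tfeb and -1.58 to 0.33 for Tfec, and in the genotype difference -0.32 to 0.93 for Gpnmb, -0.36 to 0.0747 for Tfeb and -1.17 to 0.79 for Tfec. The r of Tfe3 with Gpnmb lay between -0.0114 and 0.304, and that of Mitf passed the threshold on TPM of coding transcripts (0.581). The cause was not tested.

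The labels do not say that same-numbered libraries are pairs. The correlation of their deviations was over 0.1 for 5 of 6 pairs in Apoe-/- and 4 of 5 in wild-type cells, so not for every pair, and they were not treated as paired. With the number as a replicate block, Gpnmb changed by 4.24 in Apoe-/- and 4.15 in wild-type cells (edgeR, adjusted p = 0.000933 and 0.00138), 255 and 135 genes were called with the sort and 7 between phagocytic cells, Tfeb was at 0.0227 between non-phagocytic cells, and r with Gpnmb was -0.0299 for Mitf and -0.00983 for Tfeb. Factors stayed uncalled. The stricter filter left no value for Mitf, Tfeb and Tfec, and the fit of only the groups compared none for Tfec between non-phagocytic cells. Depth limits Tfec most, with 0 to 71 reads a library.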
